A study of Rattus norvegicus with 46 samples.

Results

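The 37 genes described here are hypoxia-inducible and glycolysis genes: the oxygen-sensing regulators of the hypoxia-inducible factors (HIFs), known HIF target genes, and the enzymes of glycolysis. They were listed by name, as genes of the pathway, with earlier results of these data known. Each was represented by its brightest probe set, and 36 of the 37 passed the filter on dim probe sets. Car12, a membrane carbonic anhydrase, was too dim to be tested, with a median log2 level of 6.77 at the 13.5th percentile of the arrays. The array table held 14217 genes with a probe set of a single gene symbol, and 12958 of them were tested.

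Duodenal villi of rats were measured on single-colour expression arrays, with 1 array for the uppermost and 1 for the lowermost part of the villi of each rat. The Wistar (++) rats were 1 month old when the diets began. Control Wistar rats (4 rats) ate a normal diet. Iron-deficient Wistar rats (4 rats) ate a low-iron diet and lost 2 to 3 ml of blood every 3 days for 4 weeks. Iron-repleted Wistar rats (3 rats, a further animal having died under anesthesia) had the same deficiency, and for the last 3 days their drinking water held ferric ammonium citrate at 50 µM. Belgrade (bb) rats, on a Wistar background, carry a mutation of Slc11a2, the divalent metal transporter that brings iron into the enterocyte, in all their cells. They were either unfed, meaning on a normal diet without added iron (4 rats), or fed iron for 3 days (4 rats) or 6 days (3 rats), and their ages were not given in the sources used here. All animals were fasted overnight, and RNA came from pooled cryosections of a short duodenal piece near the pylorus, with no separation of the epithelium from the tissue core. Another experiment on 1 Wistar rat gave 2 further arrays, of its lower and its upper crypts.

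HIFs are transcription factors made of an oxygen-sensitive alpha subunit and a stable partner, Arnt. The prolyl hydroxylases Egln1, Egln2 and Egln3 mark the alpha subunit for destruction through the Vhl ubiquitin ligase, and they need oxygen, 2-oxoglutarate and ferrous iron to do so. The alpha subunit Hif1a is best known for driving glycolysis genes, and Epas1 (HIF-2 alpha) for driving the iron absorption genes of the duodenal enterocyte. The villus itself carries an oxygen gradient, because blood flowing up it loses oxygen to the blood returning down, and its tip is the least oxygenated part.

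Array median intensity ran from 597 to 1179. Control rats 1 and 2, and unfed Belgrade rats 1 and 2, were nearly identical to each other in both segments (robust SD of their log2 differences 0.147 to 0.179, against 0.231 to 0.729 between other rats of a group). Each such pair was averaged and counted as 1 sample, which left 20 samples: 3 control, 4 iron-deficient, 3 iron-repleted, 3 unfed Belgrade, 4 fed iron for 3 days and 3 for 6 days. Of the 10 probed enterocyte markers, Vil1, a brush border protein, was never below the 95.6th percentile of an array. The lowest percentiles of the 10 ran from 41.3 for Apoa4 to 98.6 for Fabp1. The bottom arrays differed in how much of the tissue core they held. Marker sums are given as the log2 of the summed intensities. For 13 smooth muscle and stroma markers at the villus bottom the sum ran from 17.25 to 19.59 in the control samples. It ran from 16.71 to 17.26 in the iron-deficient and from 16.82 to 17.85 in the unfed Belgrade samples. Iron-repleted rat 3 had 19.63 against 17.22 and 17.33 in the others of its group. Its enterocyte marker sum at the bottom was 16.675, against 19.121 and 19.177 in the others. Summed red blood cell markers at the villus top (3 genes) ran from 13.72 to 13.97 in the control, from 15.08 to 17.04 in the iron-deficient and from 14.40 to 15.99 in the unfed Belgrade samples. Other sums also separated control from iron-deficient samples at the top. Enterocyte markers ran from 20.21 to 20.45 in control and from 19.885 to 20.11 in iron deficiency. Goblet markers (6 genes) ran from 17.77 to 18.24 and from 18.345 to 18.61, with 18.64 to 19.02 in unfed Belgrade samples. Lymphocyte and plasma cell markers (7 genes) ran from 14.51 to 15.90 and from 12.96 to 13.97. Stroma, endothelium, pancreas and proliferating crypt sums overlapped there. Exocrine pancreas markers at the bottom reached 18.13 in 1 control and 19.43 in 1 iron-deficient sample, with group medians of 13.30 and 12.93. The part of these in the results below was not tested. In such bulk tissue, fewer cells of a type and less RNA per cell cannot be told apart.

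Levels of single probe sets are not comparable between genes and are given once as median log2 levels over the villus arrays. Among regulators they were 12.18 for Egln1, 12.73 for Egln2, 13.27 for Egln3, 13.83 for Hif1a, 15.12 for Epas1 and 12.28 for Vhl. They were 13.10 for Slc16a3, 12.97 for Car9, 12.14 for Vegfa, 9.86 for Adm and 11.70 for Slc2a1. The arrays thus read all of the regulators well above the 40th percentile used as the filter. Enzymes had 10.47 for Hk1, 9.91 for Hk2, 15.21 for Gpi, 11.79 for Pfkl, 14.64 for Pfkp, 10.34 for Pfkfb3, 11.58 for Pfkfb4, 16.48 for Aldoa, 16.10 for Tpi1, 16.19 for Pgk1, 15.82 for Pgam1, 16.34 for Eno1, 16.81 for Ldha and 11.45 for Pdk1. The remaining genes had 11.72 for Bnip3, 14.84 for Bnip3l, 15.88 for Higd1a, 11.14 for P4ha1, 10.82 for P4ha2, 15.10 for Ndrg1, 10.65 for Ankrd37, 11.82 for Kdm3a, 12.56 for Ddit4, 13.72 for Mxi1 and 12.91 for Bhlhe40. Ldha, Aldoa and Eno1 were at or above the 99.5th percentile of the arrays, so the glycolytic enzymes include some of the brightest probe sets.

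HIFs bind the core letters ACGTG or GCGTG. RefSeq (assembly GRCr8) gave a promoter window for 34 of the 37 genes, all but Pgk1, Bnip3l and Ndrg1. For 5 of the 34 genes several windows were given, and for every gene only the first listed was used. Either of the letter groups, on either strand, stood in the 250 bases before the start of 18 of the 34 genes (52.9%), against 10400 of 27457 promoters of all genes (37.9%). In the whole window, which adds 50 bases after the start, the counts were 21 of 34 (61.8%) and 11788 of 27457 (42.9%). A palindromic CACGTG counts on both strands. The 4 windows below belong to genes that were higher in iron-deficient than in control rats in at least 1 of the tests that follow, and hold 2 to 4 matches each. Capitals mark the bases that match. They are Slc2a1 (chr5:138002272-138002521, + strand), Bnip3 (chr1:203154963-203155212, - strand), Ddit4 (chr20:28437038-28437287, - strand) and Bhlhe40 (chr4:143174200-143174449, + strand), each read 5′ to 3′ along the gene.
Slc2a1: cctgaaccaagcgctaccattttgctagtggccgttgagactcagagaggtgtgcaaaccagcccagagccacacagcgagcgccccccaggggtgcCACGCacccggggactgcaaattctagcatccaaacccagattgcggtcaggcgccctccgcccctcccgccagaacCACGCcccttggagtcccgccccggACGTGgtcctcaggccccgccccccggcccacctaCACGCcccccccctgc
Bnip3: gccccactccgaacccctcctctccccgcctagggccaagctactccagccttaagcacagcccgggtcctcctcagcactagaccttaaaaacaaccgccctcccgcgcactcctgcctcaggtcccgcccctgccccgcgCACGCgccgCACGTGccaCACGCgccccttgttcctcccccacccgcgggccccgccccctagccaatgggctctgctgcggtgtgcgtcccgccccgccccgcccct
Ddit4: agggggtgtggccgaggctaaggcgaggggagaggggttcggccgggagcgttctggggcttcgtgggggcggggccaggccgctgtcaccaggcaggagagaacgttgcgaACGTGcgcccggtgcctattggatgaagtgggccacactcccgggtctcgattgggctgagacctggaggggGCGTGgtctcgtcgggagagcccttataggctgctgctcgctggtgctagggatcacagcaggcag
Bhlhe40: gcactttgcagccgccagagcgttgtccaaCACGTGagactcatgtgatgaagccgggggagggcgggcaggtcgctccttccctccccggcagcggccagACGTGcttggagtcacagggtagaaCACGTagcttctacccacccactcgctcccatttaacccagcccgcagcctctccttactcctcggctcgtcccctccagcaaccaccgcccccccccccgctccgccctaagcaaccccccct
The windows of Egln3, Slc16a3 and Car9, the other genes that changed on the mean of the segments, held neither letter group in the 250 bases before the start. A match describes letters and is no evidence of binding, and its absence covers only this window.

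Differences between groups were tested on the mean of the log2 levels of top and bottom in each sample, with limma and Benjamini-Hochberg adjustment over all 26517 probe sets tested, and a gene is said to have risen or fallen at an adjusted p under 0.05. All differences are on the log2(intensity + 44) scale, which understates those of dim genes. The rats are separate animals by the labels, but the near-identical pairs show that this cannot be taken for every array.

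In iron-deficient Wistar rats, 4 of the 36 genes rose against control and none fell: Egln3, Slc16a3, Car9 and Bhlhe40. Over all probe sets, 0.272% were called higher and 0.404% were called in either direction. Most of the other genes were also above control without passing the test: 28 of 36 differences were positive, with a median of 0.31 (range -0.08 to 1.81) against a median of -0.02 over all probe sets, and 33 were positive with median centring. In 16 of the 36 genes every iron-deficient sample was above every control sample, which held for 7.84% of all probe sets. At an unadjusted p under 0.05 the count was 16 of 36, against 14.1% of all probe sets.

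Among the regulators, Egln3, the prolyl hydroxylase that is itself a HIF target, was the one that rose. Its log2 level was 12.21, 12.83 and 12.15 in the control samples, 13.18, 13.53, 13.86 and 13.75 in the iron-deficient samples, and 13.90, 14.29 and 13.003 in the iron-repleted samples. In Belgrade rats it was 13.96, 13.89 and 14.09 unfed, 13.04, 13.55, 13.50 and 13.50 after 3 days of iron, and 13.29, 13.25 and 13.32 after 6 days. All 3 control samples lay below every sample of the other groups. The iron-deficient group exceeded control by 1.18 ± 0.23 (SE), a 2.27-fold difference (limma, adjusted p = 0.0350).

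The related hydroxylases did not pass the test: Egln1 differed by 0.14 ± 0.19 (limma, adjusted p = 0.792) and Egln2 by -0.08 ± 0.17, or 0.01 with median centring. Hif1a overlapped control, with samples of 13.79, 14.14 and 14.02 in control and 13.76, 13.93, 13.95 and 14.25 in iron deficiency, and a difference of -0.01 ± 0.27 (adjusted p = 0.993), or 0.19 with median centring. Epas1 was 14.63, 14.75 and 14.89 in control and 15.38, 15.26, 15.49 and 14.96 in iron deficiency. Its groups did not overlap, but the difference of 0.52 ± 0.17 missed the threshold (adjusted p = 0.153). A second, dimmer probe set of Epas1 gave 0.98 (limma, adjusted p = 0.112). Vhl differed by 0.23 ± 0.20.

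Both tested genes of lactate and acid handling rose. Slc16a3, the MCT4 transporter that exports lactate from glycolytic cells, was 11.74, 11.49 and 11.24 in the control samples, 13.14, 13.18, 13.61 and 12.67 in the iron-deficient samples and 12.76, 13.72 and 11.18 in the iron-repleted samples. Its level in unfed Belgrade rats was 12.84, 12.40 and 12.94, with 12.16 to 12.70 after 3 days of iron and 12.11 to 12.60 after 6 days. Outside the control group, iron-repleted rat 3, the sample with the high stroma markers, was the one below all control samples, and every other sample was above them. The difference between iron-deficient and control rats was 1.66 ± 0.36, or 3.16-fold (limma, adjusted p = 0.0440).

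Car9, a membrane carbonic anhydrase that disposes of acid outside the cell, was 12.33, 12.04 and 12.03 in control, 12.94, 13.17, 13.10 and 13.26 in iron-deficient and 13.26, 13.18 and 12.57 in iron-repleted samples. In Belgrade rats it was 12.52, 13.12 and 13.03 unfed, 12.38 to 13.03 after 3 days of iron and 12.26 to 12.66 after 6 days. Control and iron-deficient samples did not overlap, and the difference was 0.99 ± 0.19, or 1.98-fold (limma, adjusted p = 0.0350).

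Bhlhe40, a transcriptional repressor of the clock and a HIF target, stood at 11.76, 12.02 and 12.25 in control, 13.13, 13.52, 13.56 and 13.24 in iron-deficient and 13.47, 13.47 and 11.90 in iron-repleted samples. In Belgrade rats it was 12.75, 13.39 and 13.59 unfed, 12.84 to 13.32 after 3 days of iron and 12.99 to 13.20 after 6 days. Iron-repleted rat 3 was again the exception, inside the control range. The iron-deficient rats exceeded control by 1.35 ± 0.28, or 2.55-fold (limma, adjusted p = 0.0353).

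**Figure D1:**
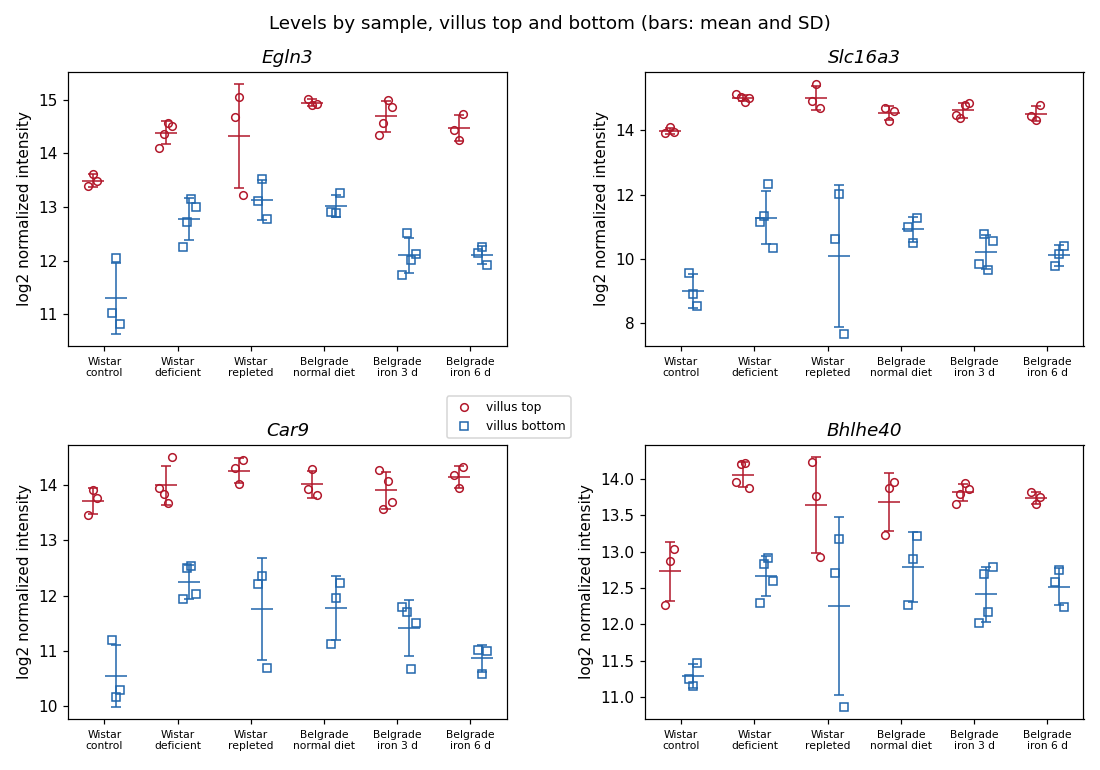
Log2 normalized intensity of Egln3, Slc16a3, Car9 and Bhlhe40 at the villus top (red circles) and villus bottom (blue squares) in each of the 20 samples, by group on the horizontal axis, with bars for mean and SD. In each panel and group the mean is higher at the top, and the bottom control samples are low, for Egln3 between 10.82 and 12.05 against 12.26 to 13.15 in iron deficiency.

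No glycolytic enzyme rose on the mean of the segments. Of the 14 tested, 9 differences were positive, with a median of 0.10 and a range from -0.08 to 0.77. The upper end held Hk2, a hexokinase (0.77 ± 0.30), and Pgk1, phosphoglycerate kinase (0.74 ± 0.18, limma, adjusted p = 0.0612). Ldha, the lactate dehydrogenase subunit that favours lactate, was 0.43 ± 0.15 above control (adjusted p = 0.169). Middle enzymes of the pathway lay close to control: Tpi1 at -0.05 ± 0.14, Gpi at -0.08 ± 0.18, Pgam1 at 0.11 ± 0.12 and Eno1 at -0.08 ± 0.11. With median centring Tpi1 and Eno1 were at 0.21 and Gpi at 0.13, none of them called. Each of these middle enzymes had a single probe set, with a median level at or above the 98.3rd percentile of the arrays. Whether such bright probe sets read differences in full was not tested. Hk1, Pfkl, Pfkp, Pfkfb3, Pfkfb4, Aldoa and Pdk1 made up the rest, between -0.06 and 0.31.

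The 3 genes of vessel growth and glucose supply were all above control, and none passed the test. Slc2a1, the glucose transporter GLUT1, differed by 1.10 ± 0.26 (limma, adjusted p = 0.0574), Vegfa, the vascular growth factor, by 0.55 ± 0.19, and Adm, the vasodilator peptide adrenomedullin, by 0.48 ± 0.43. Bnip3, a mitophagy receptor, differed by 1.13 ± 0.31 (adjusted p = 0.0956), its relative Bnip3l by 0.22 ± 0.14 and Higd1a, a small mitochondrial protein, by 0.40 ± 0.14. P4ha1, a collagen prolyl hydroxylase, differed by 0.74 ± 0.35 and P4ha2 by -0.04 ± 0.23. All 6 stress and transcription genes were positive, with a median of 0.74: Ankrd37 at 1.81 ± 0.61, Bhlhe40, Ndrg1 at 0.77 ± 0.20, Ddit4 at 0.71 ± 0.22, Mxi1 at 0.30 ± 0.16 and the histone demethylase Kdm3a at 0.23 ± 0.16. A further probe set of 12 of the genes was tested as well, and those of Ndrg1 (1.47, adjusted p = 0.0350) and Pgk1 (1.17, adjusted p = 0.0353) passed the same test.

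These 4 calls depended on settings and on single samples. None of the 36 genes was called with median centring, without the intensity trend of the variance or with Xist as a covariate, and 8 were with the near-identical rats counted separately. Xist, the RNA of the inactive X, was high in 1 of 3 control and 0 of 4 iron-deficient samples. The count was 0 without control sample 1-2, without control 4, without iron-deficient rat 1, 2 or 3, or without rat 1 of the 6-day Belgrade group, 1 without control 3, and 9 without iron-repleted rat 3. The larger counts stand without the share of all probe sets called in the same fits, and cannot be read as a gain particular to these genes.

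**Figure D2:**
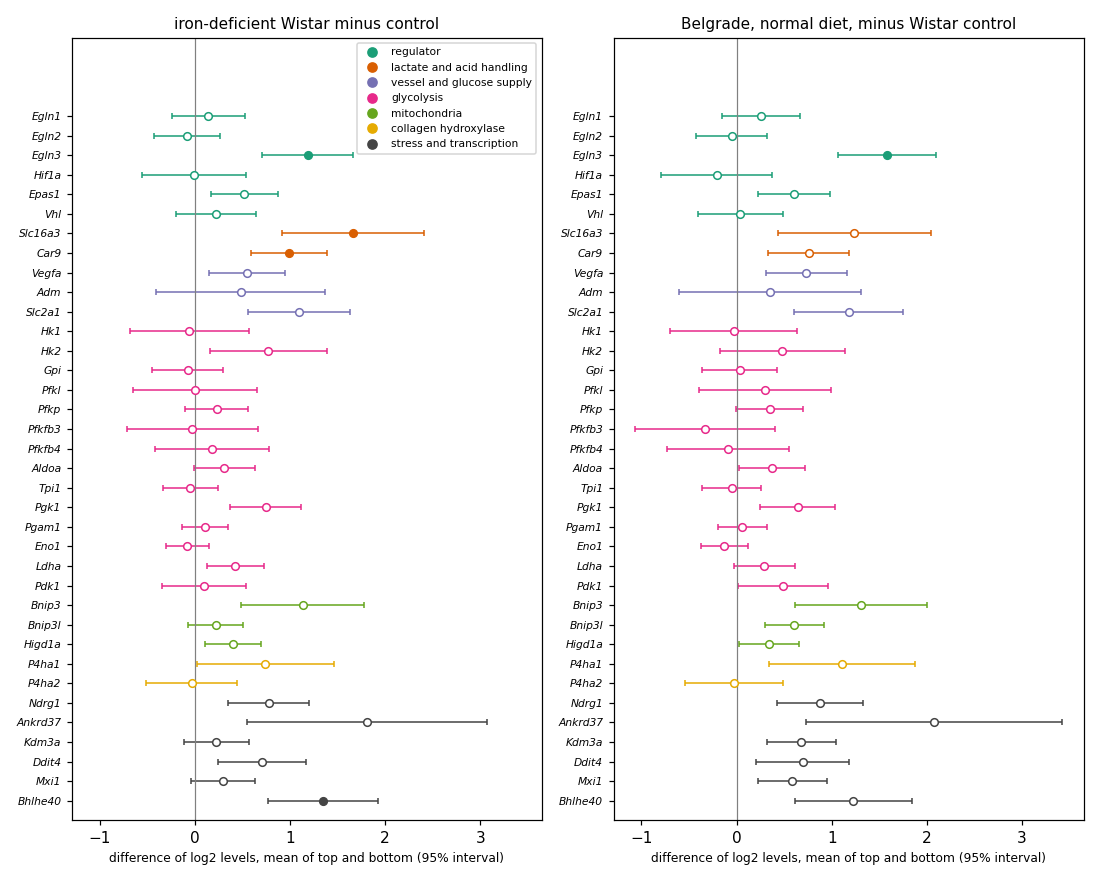
Difference of log2 levels from Wistar control, on the mean of top and bottom, for the 36 tested genes coloured by role, in iron-deficient Wistar rats (left) and in Belgrade rats on a normal diet (right). Circles are fitted differences with their 95% confidence intervals, filled where the adjusted p was under 0.05. On the left 4 genes are filled and on the right Egln3 alone, at 1.58.

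The same comparison was made in each segment. At the villus top, 6 of 36 genes rose in iron-deficient rats, against 0.460% of all probe sets called higher: Slc16a3, Bhlhe40, Ddit4, Bnip3, Pgk1 and Slc2a1. Ddit4, an inhibitor of mTORC1 signalling, was 11.99, 12.18 and 12.05 at the top in control and 13.01, 13.66, 13.90 and 13.35 in iron deficiency, a difference of 1.41 ± 0.27 (limma, adjusted p = 0.0141). At the bottom its difference was 0.01 ± 0.30. Bnip3 was 10.56, 10.68 and 10.40 against 12.87, 12.96, 11.89 and 11.48 at the top, a difference of 1.76 ± 0.36 (adjusted p = 0.0202), and 0.51 ± 0.32 at the bottom. The control samples of both genes lay below every iron-deficient sample at the top.

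Pgk1 at the top was 15.79, 16.06 and 16.09 in control and 16.95, 17.01, 17.13 and 16.55 in iron deficiency, which differed by 0.93 ± 0.22 (limma, adjusted p = 0.0359). Slc2a1 was 10.95, 11.31 and 11.11 against 12.25, 12.63, 13.07 and 12.61, a difference of 1.52 ± 0.35 (adjusted p = 0.0366). Slc16a3 at the top was 13.91, 14.09 and 13.95 against 15.13, 15.04, 14.90 and 15.01, a difference of 1.04 ± 0.18 (adjusted p = 0.00856), and Bhlhe40 differed by 1.33 ± 0.25 (adjusted p = 0.0113). No control sample of these genes overlapped the iron-deficient ones. Car9 had its larger difference at the bottom, 1.69 ± 0.38 against 0.28 ± 0.21 at the top, neither of them called (adjusted p = 0.438 for top against bottom).

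At the bottom no gene was called (0 of 36, as for 0 of all probe sets, with 14 of 36 and 13% at an unadjusted p under 0.05, and a smallest adjusted p of 0.1004 for Egln3). Whether the effect differed between top and bottom was tested as the difference of the within-rat differences, and no gene passed (0 of 36 and 0 of all probe sets called, 6 of 36 and 9.04% at an unadjusted p under 0.05). Of the genes called at the top, Ddit4 had 1.40 ± 0.40 (limma, adjusted p = 0.307) and Bnip3 1.24 ± 0.30 (adjusted p = 0.288), the lowest of the 36 adjusted p-values. The fitted values ran from -1.41 ± 0.52 for Car9 to 1.52 ± 0.58 for Hk2. The top calls fell to 0 without control sample 1-2, 3 without control 4 or iron-deficient rat 1 and 2 without iron-deficient rat 2, and to 0 with median centring or without the variance trend.

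**Figure D3:**
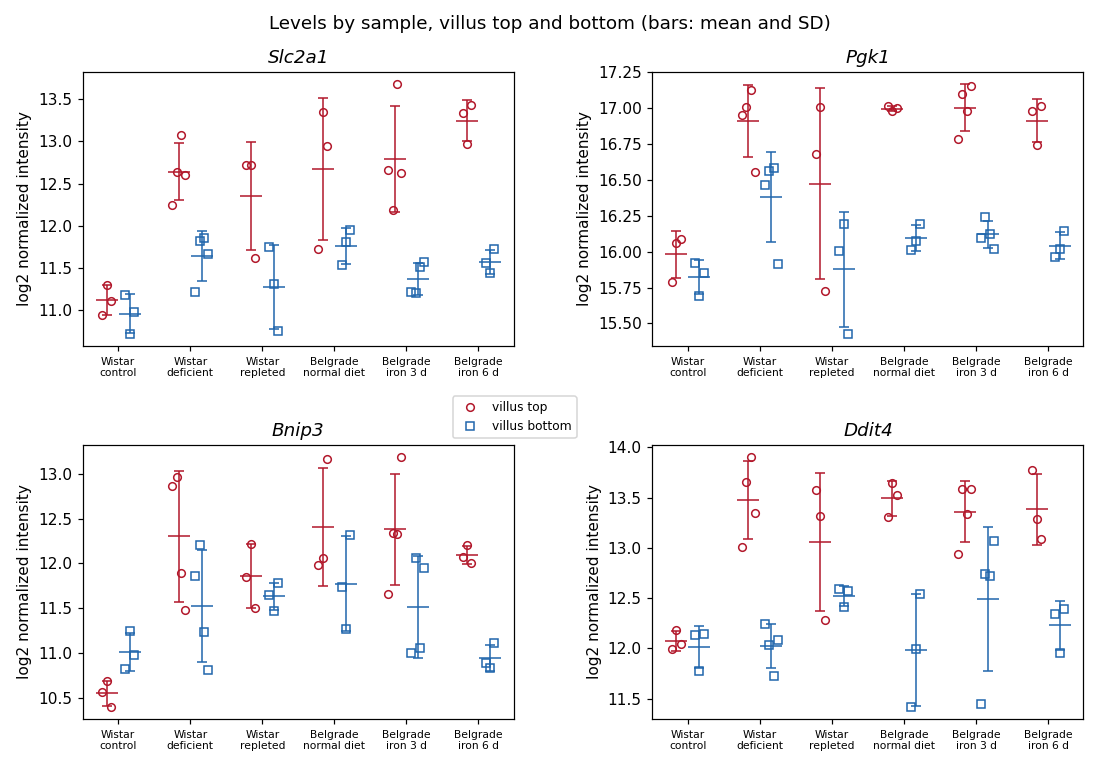
Log2 normalized intensity of Slc2a1, Pgk1, Bnip3 and Ddit4 at the villus top (red circles) and bottom (blue squares) in each of the 20 samples, by group on the horizontal axis, with bars for mean and SD. At the top the control samples lie below every iron-deficient sample, for Ddit4 between 11.99 and 12.18 against 13.01 to 13.90.

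Unfed Belgrade rats were above control in 28 of the 36 genes, with a single call. Egln3 rose by 1.58 ± 0.25, or 3.00-fold (limma, adjusted p = 0.0329), as 1 of 36 genes called, against 0.0113% of all probe sets. The median of the 36 differences was 0.43, against -0.01 over all probe sets. In 21 of 36 genes every unfed Belgrade sample was above every control sample, against 7.13% of all probe sets, and 19 of 36 had an unadjusted p under 0.05, against 6.00%. The 2 comparisons share their control samples, so the values stand side by side and are not independent. Median centring, the fit without a variance trend and the deposited scale each left 0 genes called, as did leaving out control sample 1-2, control 4, iron-deficient rats 2 or 4, any unfed Belgrade sample, rat 2 of the 3-day or rats 1 or 3 of the 6-day Belgrade group, while 4 were called without iron-repleted rat 3. For that last fit the share of all probe sets called is not given here.

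Uncalled values for genes named above were 1.24 ± 0.39 for Slc16a3 (1.66 in iron deficiency), 0.76 ± 0.21 for Car9 (0.99), 1.23 ± 0.30 for Bhlhe40 (1.35), 1.18 ± 0.28 for Slc2a1 (1.10) and 1.31 ± 0.33 for Bnip3 (1.13). Ankrd37 had the largest difference, 2.07 ± 0.65, from control samples of 9.66, 9.83 and 8.40 to unfed Belgrade samples of 11.08, 11.37 and 11.67. Its group samples did not overlap but its adjusted p was 0.559. Epas1 differed by 0.61 ± 0.18 (adjusted p = 0.517) and Hif1a by -0.21 ± 0.28. By role, medians were 1.00 for lactate and acid handling, 0.73 for vessel and glucose supply, 0.61 for the mitochondrial genes, 0.79 for stress and transcription, and 0.18 for glycolysis. Of the regulators, besides Egln3, Epas1 and Hif1a, Egln1 differed by 0.255, Egln2 by -0.05 and Vhl by 0.04. The collagen hydroxylases P4ha1 and P4ha2 differed by 1.11 and -0.025.

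At the villus top no gene passed in unfed Belgrade rats, although 4 came close: Ddit4 at 1.42 ± 0.28 (limma, adjusted p = 0.0504), Egln3 at 1.45 ± 0.30 (0.0510), Bnip3 at 1.86 ± 0.39 (0.0514) and Pgk1 at 1.02 ± 0.23 (0.0829). The count of 0 of 36 stood against 0.0905% of all probe sets called, and 16 of 36 against 6.57% had an unadjusted p under 0.05. Summed proliferating crypt markers (7 genes) at the top ran from 16.05 to 16.65 in unfed Belgrade samples and from 14.46 to 15.18 in control samples, without overlap, and their part in these values was not tested. At the bottom 0 of 36 were called, against 0.00377%, and 14 of 36 against 6.51% had an unadjusted p under 0.05. The test of top against bottom called 0 of 36 and 0 of all probe sets, with 7 of 36 and 6.45% at an unadjusted p under 0.05.

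Set directly against iron-deficient Wistar rats, unfed Belgrade rats had 0 of 36 genes called, and 0 of all probe sets were called. An unadjusted p under 0.05 was reached by 2 of 36 genes, Bnip3l and Kdm3a, and by 4.60% of all probe sets. The median difference was 0.03, with 20 of 36 positive. Egln3 was 0.40 higher in the Belgrade rats (95% confidence interval -0.08 to 0.88), with every unfed Belgrade sample above every iron-deficient one.

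Iron repletion of deficient Wistar rats for 3 days changed none of the genes by the test. Compared with iron-deficient rats, 0 of 36 genes and 0 of all probe sets were called, and 2 of 36 genes against 12.8% of all probe sets had an unadjusted p under 0.05. The 2 genes were Egln2, at 0.36 ± 0.17, and Pgk1, at -0.47 ± 0.18. The median difference was -0.07 (13 positive, 23 negative) against -0.03 over all probe sets, with 7 positive under median centring. No gene had every iron-repleted sample below every iron-deficient one, a pattern of 4.01% of all probe sets. Egln3 differed by 0.15 (adjusted p = 0.831).

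Repleted rats stayed above control in Egln3, by 1.33 ± 0.25 or 2.52-fold (limma, adjusted p = 0.0404), 1 of 36 genes called against 0.0339% of all probe sets called higher and 0.0679% in either direction. The median of the 36 differences was 0.33, with 27 positive, against -0.05 over all probe sets. In 11 of 36 genes every repleted sample exceeded every control sample, against 7.65% of all probe sets, and 15 of 36 against 15.1% had an unadjusted p under 0.05. At the top, Slc16a3 was 14.93, 15.44 and 14.69 in repleted rats, above all control samples, and exceeded control by 1.04 ± 0.19 (adjusted p = 0.0395). It was 1 of 36 genes called higher there, against 0.0490% of all probe sets.

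Rat 3 stood apart in the repleted group. Its Slc16a3 level at the villus bottom was 7.66, against 10.60 and 12.01 in the other repleted rats. Without it, 5 genes were above control by the test (Egln3, Slc16a3, Car9, Ndrg1 and Bhlhe40) on the mean of the segments and 7 at the top. The share of all probe sets called in these fits is not given here, so the counts cannot be read as a gain particular to these genes. The Egln3 call against control was lost in 13 of 20 fits that left out 1 sample, and in 1 of these, without repleted rat 1, Vegfa was called in its place. Those with 0 genes called left out any control sample, iron-deficient rats 1, 2 or 3, repleted rat 2, unfed Belgrade rat 3, rat 3 of the 3-day or any rat of the 6-day Belgrade group. The top call of Slc16a3 was lost without any control sample, iron-deficient rats 1 or 2, repleted rat 2, rat 2 of the 3-day or any rat of the 6-day Belgrade group, and 3 genes were called there without repleted rat 1.

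Feeding iron to Belgrade rats also left no gene past the test. After 3 days 0 of 36 genes and 0 of all probe sets were called against unfed Belgrade rats, and 3 of 36 against 2.75% had an unadjusted p under 0.05. After 6 days the counts were 0 of 36 and 0 of all probe sets, and 3 of 36 against 4.22%. The medians were -0.09 and -0.05, with 14 of 36 differences positive at both times, or 6 and 12 with median centring. Both times share the unfed samples. At the bottom 29 of 36 differences were negative at both times (medians -0.166 and -0.205, against 0.017 and 0.005 over all probe sets). At the top 19 and 20 of 36 were positive (medians 0.015 and 0.027). No gene was called in either segment, and over all probe sets 1 was, at the bottom after 6 days. The test of top against bottom called 0 of 36 genes and 0 of all probe sets at both times.

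On the mean of the segments, several of the HIF targets had negative differences with iron, without a call. Egln3 differed from unfed by -0.58 ± 0.23 after 3 days (95% confidence interval -1.07 to -0.10) and by -0.69 ± 0.25 after 6 days (-1.21 to -0.18), with every fed sample below every unfed one. In 9 of 36 genes every 6-day sample was below every unfed sample, against 5.62% of all probe sets, and after 3 days in 2 of 36, Egln3 and Pfkfb4, against 2.24%. The 9 were Egln3, Epas1, Pdk1, Bnip3, Bnip3l, Higd1a, Ankrd37, Kdm3a and Mxi1, among them all 3 mitochondrial genes. Other values also moved with this comparison: 13 of 13 stroma markers were positive for 6 days against unfed (median 0.60), and Xist, the RNA of the inactive X, was high in 3 of 3 6-day samples against 1 of 3 unfed ones. After 3 days 7 of 13 stroma markers were positive (median 0.05). The part of these in the values was not tested. Bnip3l, a mitophagy receptor, was 15.38, 14.96 and 15.10 unfed, 14.64, 15.01, 14.88 and 14.82 after 3 days and 14.71, 14.62 and 14.65 after 6 days. Its 6-day difference was -0.49 ± 0.15 (limma, adjusted p = 0.9995). Ankrd37 was 11.08, 11.37 and 11.67 unfed and 10.67, 9.70 and 10.11 after 6 days.

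Most of the genes differed along the villus. Of the 36 28 were higher at the villus top and 3 were lower, by the test on within-rat differences over 20 samples. Over all probe sets 25.5% were called higher and 28.8% lower at the top. The median difference was 0.76, with 32 of 36 positive, against 0.02 over all probe sets. Calls by role were 4 higher and 1 lower of 6 regulators, 2 of 2 in lactate and acid handling, 3 of 3 in vessel and glucose supply, 10 higher and 2 lower of 14 in glycolysis, 3 of 3 mitochondrial genes, 0 of 2 collagen hydroxylases and 6 of 6 in stress and transcription.

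Slc16a3 had the widest gap of the 36. Its top levels ran from 13.91 to 15.44 (median 14.70) and its bottom levels from 7.66 to 12.33 (median 10.45), so the segments did not overlap in any sample. Within samples, the gap ran from 2.57 to 7.03 (median 4.31), and its fitted value was 4.36 ± 0.19, or 20.5-fold (limma, adjusted p = 1.810e-11). Adm was higher at the top in 19 of 20 samples, with gaps from -0.42 to 6.45 (median 3.32) and a fitted 3.30 ± 0.33, or 9.83-fold. The exception was iron-repleted rat 3.

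Car9 was higher at the top in 20 of 20 samples, with gaps from 1.14 to 3.76 (median 2.39), and a fitted 2.56 ± 0.16, or 5.91-fold. Pfkfb4, a bifunctional enzyme that sets fructose 2,6-bisphosphate, had gaps from 0.78 to 3.25 (median 1.97), fitted at 2.12 ± 0.15. For Egln3 the gaps ran from 0.46 to 2.96 (median 1.99), fitted at 1.98 ± 0.10, or 3.93-fold. Vegfa had gaps from 1.25 to 3.36 (median 1.82) and a fitted 1.90 ± 0.12. Every one of these 4 genes was higher at the top in all 20 samples.

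Epas1 and Vhl were higher at the top in 20 of 20 samples, by 1.09 ± 0.07 and 1.54 ± 0.09, and Egln2 by 0.53 ± 0.07. Hif1a had a fitted difference of -0.01 ± 0.08 (95% confidence interval -0.17 to 0.15, limma, adjusted p = 0.949), and 11 of 20 samples were higher at the top. Its value depended on the scaling, since with median centring it was called higher at the top, at 0.24 (adjusted p = 0.0271). Egln1, the hydroxylase that sets HIF levels in most tissues, ran the other way, with gaps from -0.996 to 0.12 (median -0.36) and a fitted -0.39 ± 0.08 (adjusted p = 3.999e-04). It was higher at the top in 1 of 20 samples.

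Glycolysis was split. Gpi, glucose-6-phosphate isomerase, was lower at the top in every sample, with gaps from -1.20 to -0.22 (median -0.60) and a fitted -0.64 ± 0.07 (limma, adjusted p = 7.433e-07). Pgam1, phosphoglycerate mutase, was also lower in every sample, between -0.65 and -0.19 (median -0.37), fitted at -0.38 ± 0.06 (adjusted p = 2.266e-05). With median centring Gpi was at -0.25 (adjusted p = 0.0406) and Pgam1 at -0.05 (adjusted p = 0.609), so the Pgam1 call depended on the scaling. Hk2 at 1.03 ± 0.17, Pfkfb3 at 1.00 ± 0.11, Pgk1 at 0.66 ± 0.07, Eno1 at 0.61 ± 0.08, Pfkp at 0.58 ± 0.12, Aldoa at 0.45 ± 0.07, Ldha at 0.42 ± 0.08 and Pfkl at 0.33 ± 0.08 were higher at the top. Hk1 (0.20 ± 0.23) and Tpi1 (0.13 ± 0.08) did not pass. Tpi1 was called higher at 0.38 with median centring and at 0.26 on the deposited scale (adjusted p = 0.00111 and 0.00996), and Hk1 at 0.43 without iron-repleted rat 3 (adjusted p = 0.0145). Pfkl was not called on the deposited scale (0.13, adjusted p = 0.205). Pdk1, the kinase that shuts pyruvate out of the mitochondrion, was called higher at 0.35 ± 0.12, but its second probe set gave -0.13 (adjusted p = 0.341), and it was not called with median centring (0.23, adjusted p = 0.0847) or on the deposited scale (0.11, adjusted p = 0.439).

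The remaining called genes were Higd1a (1.68 ± 0.07), Bhlhe40 (1.29 ± 0.10), Mxi1 (1.23 ± 0.08), Ndrg1 (1.10 ± 0.14), Slc2a1 (1.04 ± 0.10), Ankrd37 (1.01 ± 0.29), Ddit4 (0.93 ± 0.12), Bnip3l (0.86 ± 0.07), Kdm3a (0.55 ± 0.07) and Bnip3 (0.53 ± 0.09). P4ha1 (0.65 ± 0.28, limma, adjusted p = 0.0589) and P4ha2 (0.08 ± 0.14) did not pass, and P4ha2 turned to -0.02 with median centring. P4ha1 was called without iron-repleted rat 3 (0.96, adjusted p = 4.997e-06) or control 3 (0.73, adjusted p = 0.0463). Other settings that called P4ha1 were 4 times the pseudocount, median centring and a stricter filter at the 60th percentile. All 22 rats counted separately, Xist as a covariate and no rat block did so too (limma, adjusted p from 0.0221 to 0.0446 in these settings). For Bnip3 the gap depended on the group in its values: the control samples were -0.26, -0.56 and -0.58 and the iron-deficient ones 1.01, 0.76, 0.66 and 0.68, with no overlap, though the test of that change gave the adjusted p of 0.288 above. Cell makeup also moved with position: 9 of 10 enterocyte markers were called higher and 0 lower at the top, against 0 higher and 7 lower of 13 stroma markers and 7 lower of 7 proliferating crypt markers. The part of this in the gaps was not tested.

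**Figure D4:**
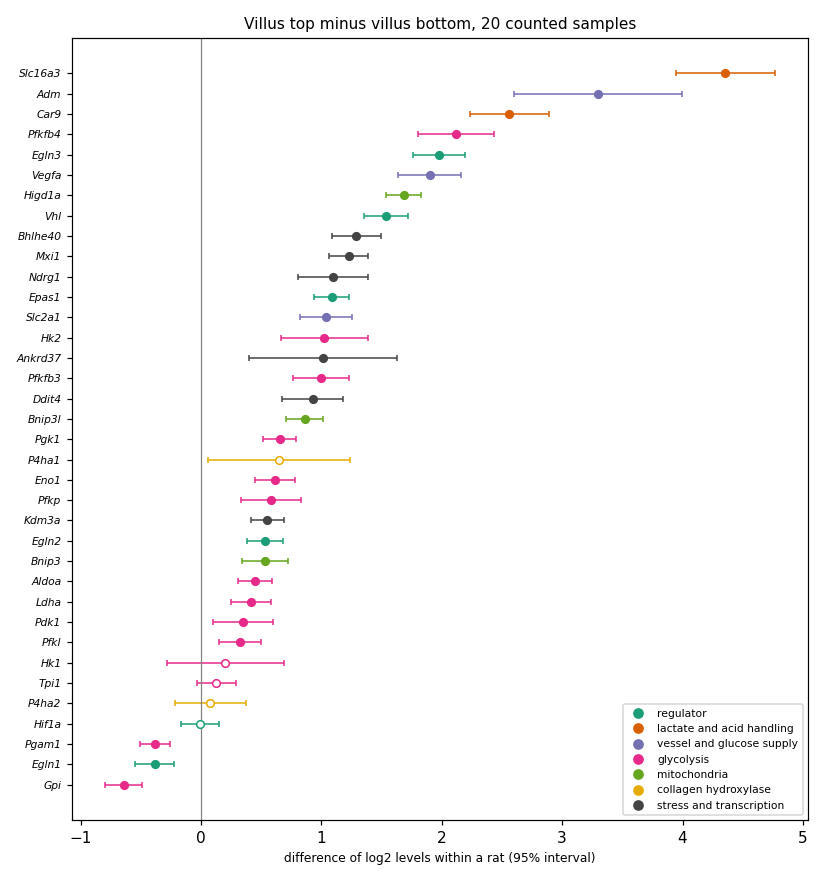
Fitted log2 difference of villus top minus bottom within a rat, with its 95% confidence interval, for the 36 tested genes over 20 samples, ordered by size and coloured by role. Filled circles had an adjusted p under 0.05. Slc16a3 lies furthest to the right at 4.36, and Gpi, Egln1 and Pgam1 are the 3 filled genes left of 0.

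The crypt arrays of the separate rat, 1 array each and so without a test, ran the same way in part. Upper minus lower crypt was positive for 30 of 36 genes, with a median of 0.56 against 0.01 over all probe sets. A difference of 1 or more was found in 6 of 36 genes (16.7%) toward the upper crypt, against 12.2% of all probe sets. The share toward the upper crypt was thus near that of all probe sets. Toward the lower crypt it was found in 0 of 36, against 14% of all probe sets. The 6 were Adm (8.30 to 11.24 from lower to upper crypt), Slc16a3 (10.87 to 13.31), Ankrd37 (11.29 to 13.10), Car9 (12.43 to 13.87), Vegfa (11.52 to 12.87) and Egln3 (13.24 to 14.49). In control villi the mean of Slc16a3 was 8.99 at the bottom and 13.98 at the top, and of Egln3 11.30 and 13.49. Since the crypts came from another experiment, no difference between crypt and villus was formed.

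**Figure D5:**
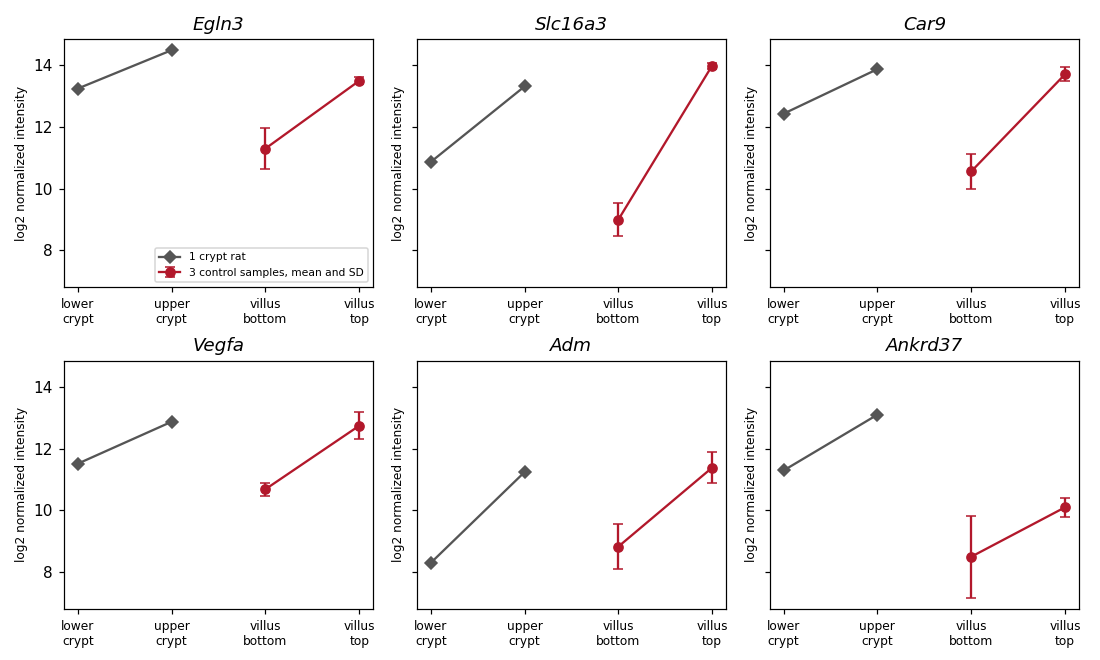
Log2 normalized intensity of the 6 genes with a crypt difference of 1 or more, in the lower and upper crypt of 1 rat (1 array each) and at the villus bottom and top of the 3 control samples (mean and SD). Crypt and villus arrays come from separate experiments and are shown side by side. Slc16a3 goes from 10.87 to 13.31 within the crypt and from a mean of 8.99 to 13.98 within the villus.

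Other genes of the pathway gave the following in iron-deficient against control rats. Of 11 tested further regulators, such as Arnt and the ubiquitin ligase subunits, none was called and 5 were positive (median -0.02). Of 21 further HIF targets 1 was called, Hmox1, the heme oxygenase, at 1.94 ± 0.32 (limma, adjusted p = 0.0197), and 13 were positive (median 0.18). At the top Hmox1 rose in iron-deficient, iron-repleted and unfed Belgrade rats, by 1.81, 2.04 and 1.85 (adjusted p = 0.00200, 0.00417 and 0.00946). All 5 HIF-2 iron genes of the enterocyte were positive, with a median of 1.39. Cybrd1, the brush border ferric reductase, rose by 2.13 ± 0.43 (adjusted p = 0.0350) and Atp7a, a copper exporter, by 1.39 ± 0.26 (adjusted p = 0.0350), whereas Slc11a2 (1.40 ± 0.36), the iron exporter Slc40a1 (1.00 ± 0.27) and Heph (0.72 ± 0.23) did not pass.

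Of 14 tested glycolysis and pyruvate genes outside the 37, none was called and 5 were positive, with a median of -0.36. At the top Pck1, a gluconeogenic enzyme, fell by 3.94 ± 0.86 (limma, adjusted p = 0.0274). In unfed Belgrade rats 15 of 21 further targets, 5 of 5 HIF-2 iron genes and 3 of 14 further glycolysis genes were positive, with medians of 0.19, 1.49 and -0.16, and none was called on the mean of the segments. At the top of unfed Belgrade villi Atp7a rose by 1.69 (adjusted p = 0.0219). Marker lists in iron-deficient against control rats had 0 of 13 stroma genes positive, with a median of -0.72 and Col6a1 called lower (-0.96, adjusted p = 0.0353). Red blood cell genes were positive in 3 of 3, with a median of 1.28, lymphocyte genes in 1 of 7 with Pou2af1 called lower, endothelial genes in 0 of 4, pancreas genes in 1 of 9, crypt genes in 1 of 7, goblet genes in 4 of 6 and enterocyte genes in 5 of 10 (median 0.03). At the top, red blood cell genes were positive in 2 of 3, with Hbb called higher (2.50). Enterocyte genes were positive there in 1 of 10 (median -0.44), with Anpep and Vil1 called lower (-1.22 and -0.71). Goblet genes were positive in 4 of 6, with Tff3 called higher (0.92). Lymphocyte genes were positive in 1 of 7, with Pou2af1 called lower (-3.10).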

How the data were processed

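The deposited table held an intensity per probe set and array on a linear scale; the authors' signal algorithm is not given in the sources used here, and 4 arrays (both segments of control rat 3 and of rat 3 of the 3-day Belgrade group) were scaled to a trimmed mean 1.15 times that of the other 42. The 37 members and all gene lists were chosen with earlier results of these data known. From 31099 probe sets, 57 controls were left out. Values were taken as log2(intensity + 44) and quantile normalized over the 44 villus arrays, with the 2 crypt arrays mapped to the same quantiles. Probe sets above an array's 40th percentile on 3 or more villus arrays were tested (26517). Gene names come from the platform annotation, 20826 probe sets having 1 symbol, 436 several and 9780 none. limma 3.58.1 in R 4.3.3 fitted 6 groups to the mean of top and bottom per sample (lmFit, eBayes with trend), and to the within-sample difference for top minus bottom, with two-sided p-values adjusted by Benjamini-Hochberg. Rats nearly identical in both segments (robust SD under 0.2 over 6209 bright probe sets) were averaged. Genes were named in full where called in a group comparison, with up to 6 in each direction for top minus bottom. The steps were tested on simulated data. Alternatives covered pseudocount, normalization, filter, variance trend, rat counting, Xist, probe set choice, the replicate number as a block and leaving out each sample. The number of arrays limits the precision.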

Additional observations from a re-analysis of the deposited data

Results flagged for a closer look

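Egln3 in rat 1 of the Belgrade group fed iron for 3 days stood apart from the others of its group, at a mean log2 level of 13.04 against 13.50 to 13.55 in the other 3 rats. Of 38 groups of values examined it was the 1 that stood apart, and chance gives about 1 in 20 such groups.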

How the results depend on the processing

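Of the members called, the 4 in iron-deficient against control rats became 0 with median centring, 0 without the variance trend, 8 with each of the 22 rats as a sample of its own and 0 with a term for Xist, and ran from 0 to 9 when 1 sample was left out. The 1 in iron-repleted against control rats became 0 with the deposited values on the log2 scale only, 0 with median centring, 0 without trend and 4 with all 22 rats, and ran from 0 to 5 with 1 sample left out. The 1 in unfed Belgrade against control rats became 0, 0, 0 and 4 under the same alternatives, and ran from 0 to 4. Shares of all probe sets called under these alternatives are not given here, so a larger count cannot be read as a gain particular to these genes. For top minus bottom 31 to 33 members were called with 1 sample left out and 30 to 32 under the other settings, not always the same ones: Pgam1 was lost with median centring (-0.05), Pdk1 with median centring and on the deposited scale (0.23 and 0.11), and Pfkl on the deposited scale and without the rat as block (0.13 and 0.33), while Hif1a (0.24) and Tpi1 (0.38) were gained with median centring. P4ha1 was gained with 4 times the pseudocount, median centring, the stricter filter, all 22 rats, Xist as a covariate and no rat block. The comparisons with 0 calls stayed at 0 in each of these fits. No called member changed direction in any fit, but uncalled ones did in at least 1: 12 of 36 for iron-deficient and 11 for iron-repleted against control, 9 for unfed Belgrade against control, 24 for repleted against deficient, 14 for unfed Belgrade against deficient, 18 and 20 for 3 and 6 days of iron, and 2 for top minus bottom. In iron deficiency against control, the deposited scale gave Hif1a 0.02, Pfkl -0.15, Tpi1 and Eno1 0.04 and Pdk1 -0.10, and median centring gave Egln2 0.01, Hif1a 0.19, Gpi 0.13, Tpi1 and Eno1 0.21. Median centring moved the median of all probe sets for repleted against control rats from -0.05 to -0.18, and the deposited scale moved it for deficient against control rats from -0.02 to -0.14; the cause was not tested.

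With the replicate number as a block and all 22 rats counted separately, the calls became 10, 10 and 6 in the same order, while calls over all 26517 probe sets rose from 107, 18 and 3 to 1317, 1606 and 91; without the rat as block, top minus bottom kept 31. Rat numbers share no origin by the labels, and in 0 of 15 pairs of groups did every pair of same-numbered rats correlate above 0.1. Even a rat's own top and bottom correlated at 0.214 at most, and 17 of 22 tops correlated best with their own bottom. Single same-numbered pairs reached 0.308, between unfed and 3-day Belgrade rats. The check therefore cannot tell whether rats of the same number shared a batch.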
